A study of Mus musculus with 2 samples.

Results

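The genes described here are 43 components of the folding and export machinery of the endoplasmic reticulum (ER), the compartment in which collagens and other secreted proteins are made. They form a list by function, and all 43 were among the 31054 features of the deposited matrices. Their unique molecular identifiers (UMIs, each standing for 1 captured transcript) were read in cells of the early mouse rib callus with at least 200 detected genes and under 10% of UMIs on mitochondrial genes. The study asked what the repair callus lacks when cells of the Sox9 lineage cannot receive a Hedgehog signal. Calluses of adult mice were taken 4 days post injury (dpi), after a large-scale rib resection that followed tamoxifen treatment, and were profiled by droplet single-cell RNA sequencing.

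The control library was Sox9:CreER;R26:tdT;Smof/+ and the Smo cKO library, labelled SmoKO, was Sox9:CreER;R26:tdT;Smof/f. Both genotypes carried the tamoxifen-inducible Cre driven from Sox9 and the tdTomato reporter, and the control animals carried 1 floxed copy of Smo, the receptor-like transducer of Hedgehog signals. Deletion is limited to cells that expressed Sox9 and their progeny, so that other callus cells of the cKO keep Smo. Each library was a pool of 3 animals and there was 1 library per genotype. No test could therefore compare the genotypes, and every interval below is a 95% interval for counting error only, which covers neither animals nor library preparation.

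Procollagen chains enter the ER through the Sec61 channel, where the signal peptidase complex removes their leader peptide. BiP (Hspa5), GRP94 (Hsp90b1) and the lectins calnexin and calreticulin hold unfinished proteins, disulfide isomerases form their disulfide bonds, and HSP47 (Serpinh1) binds the finished collagen triple helix. COPII coats assisted by TANGO1 (Mia3) then carry the cargo out, and KDEL receptors return escaped chaperones. In the skeleton this machinery is best known from osteogenesis imperfecta, which is caused by defects in collagen or in factors such as CRTAP, P3H1, FKBP10, PPIB and HSP47.

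The control library held 10747 barcodes and the Smo cKO library 10512, of which 10057 and 9507 cells passed the filters, with medians of 8367 and 9092 UMIs. The study also left out cells with more than 2000 genes, a limit that 58.0% and 59.4% of the cells kept here exceed. Of the connective cells described below, only 1431 of 6607 in the control and 786 of 5525 in the Smo cKO were within it. No doublet caller was run. A cell was classed by the list of cell type markers of which it held the largest share, with at least 3 markers found and a lead of 0.1 over the next list. This classed 86.5% of control and 85.0% of Smo cKO cells, left 1361 and 1428 cells unclassed and placed 916 and 1074 cells close to a limit of the rule, and no member or collagen gene served as a marker. The libraries shared 613 barcode sequences. Smo was at 19.1 CPM (UMIs of the gene scaled to a total of 1000000) in control connective cells and at 12.2 CPM in Smo cKO connective cells, from 1690 and 1083 UMIs, a log2 ratio of -0.65. Which exon is removed was not given in the sources used here, so this count may include transcripts of the recombined allele.

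Many of these genes are known targets of the unfolded protein response, whose factors ATF6 and XBP1 act through the ER stress element, CCAAT followed by any 9 bases and CCACG. Promoter windows from 250 bases before to 50 bases after the start were taken from RefSeq (GRCm38.p6) and 34 of the 43 members had one. The element, on either strand, was found in 6 of these 34 members (17.6%) against 37 of 27025 genes (0.137%). The CCACG part alone, which the full element contains, was found in 79.4% of the member promoters and 35.5% of all, and CCAAT in 58.8% and 41.1%. TGACGTG, a motif bound by XBP1, was found in Hspa5, Kdelr3, Sec23a, Sec24d and Mia3, which is 14.7% of the members against 2.22% of all promoters. A match describes the sequence and does not show that a factor binds there. The sites of the 6 members that hold the full element are shown, with 20 bases of flank on each side in the direction of the gene. Both parts of the element are in capitals (reversed where the element lies on the other strand).
Hspa5, chr2:34772005-34772063, plus strand: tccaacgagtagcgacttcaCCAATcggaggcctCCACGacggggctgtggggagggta
Hsp90b1 site 1, chr10:86705618-86705676, minus strand: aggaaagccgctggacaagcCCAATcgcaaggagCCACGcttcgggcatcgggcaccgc
Hsp90b1 site 2, chr10:86705513-86705571, minus strand: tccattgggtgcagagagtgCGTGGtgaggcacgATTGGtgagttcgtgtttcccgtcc
Calr, chr8:84847055-84847113, minus strand: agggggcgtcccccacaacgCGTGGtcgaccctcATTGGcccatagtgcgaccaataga
Canx, chr11:50325780-50325838, minus strand: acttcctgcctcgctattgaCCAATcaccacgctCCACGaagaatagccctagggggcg
Pdia6, chr12:17266471-17266529, plus strand: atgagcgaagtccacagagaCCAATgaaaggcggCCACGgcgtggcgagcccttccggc
Creld2, chr15:88819500-88819558, plus strand: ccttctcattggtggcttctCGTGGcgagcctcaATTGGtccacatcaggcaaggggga
The closest of these to its start was that of Hspa5, 65 to 47 bases upstream, and the farthest was site 1 of Hsp90b1, 212 to 194 bases upstream. All 6 genes encode chaperones, lectins or isomerases of the ER lumen and membrane, and none of the collagen folding, p24 or KDEL receptor genes with a window held the element.

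Connective cells, those gated on Prrx1, Pdgfra, Dcn, Lum, Postn and similar genes, carried the highest summed level of the 43 members among the classes with at least 20 cells in each library. The members made up 17814 CPM (17786 to 17842) of the UMIs of 6607 control connective cells and 19625 CPM (19596 to 19654) of those of 5525 Smo cKO connective cells. Mural cells followed at 11582 and 12883 CPM in 28 and 23 cells, then endothelial cells at 10440 and 10204 CPM in 65 and 67 cells. Osteoclasts, at 8235 and 9539 CPM, lay above macrophages or monocytes, at 7304 and 7320 CPM, and neutrophils were lowest at 4517 and 5244 CPM. Muscle-gated cells, led by Myog, Actc1 and Mylpf, held 6612 and 7904 CPM.

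Collagens differed more between these classes than the members did. The 44 collagen genes made up 3.68% and 3.16% of connective UMIs, 2.01% and 1.58% of mural UMIs and 0.754% and 0.785% of endothelial UMIs, so that endothelial cells came closer to connective cells in their machinery than in their collagen. Antibody-secreting cells, the textbook example of a cell filled with ER, were few. The plasma gate held 9 control cells and 1 Smo cKO cell, with 18628 and 20264 member CPM at collagen shares of 0.289% and 0.107%. The 4 control cells of the B gate stood at 19635 CPM and the 22 Smo cKO cells at 5111 CPM, and Jchain and Mzb1, which mark plasma cells, were among the leading genes of this gate.

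**Figure D1:**
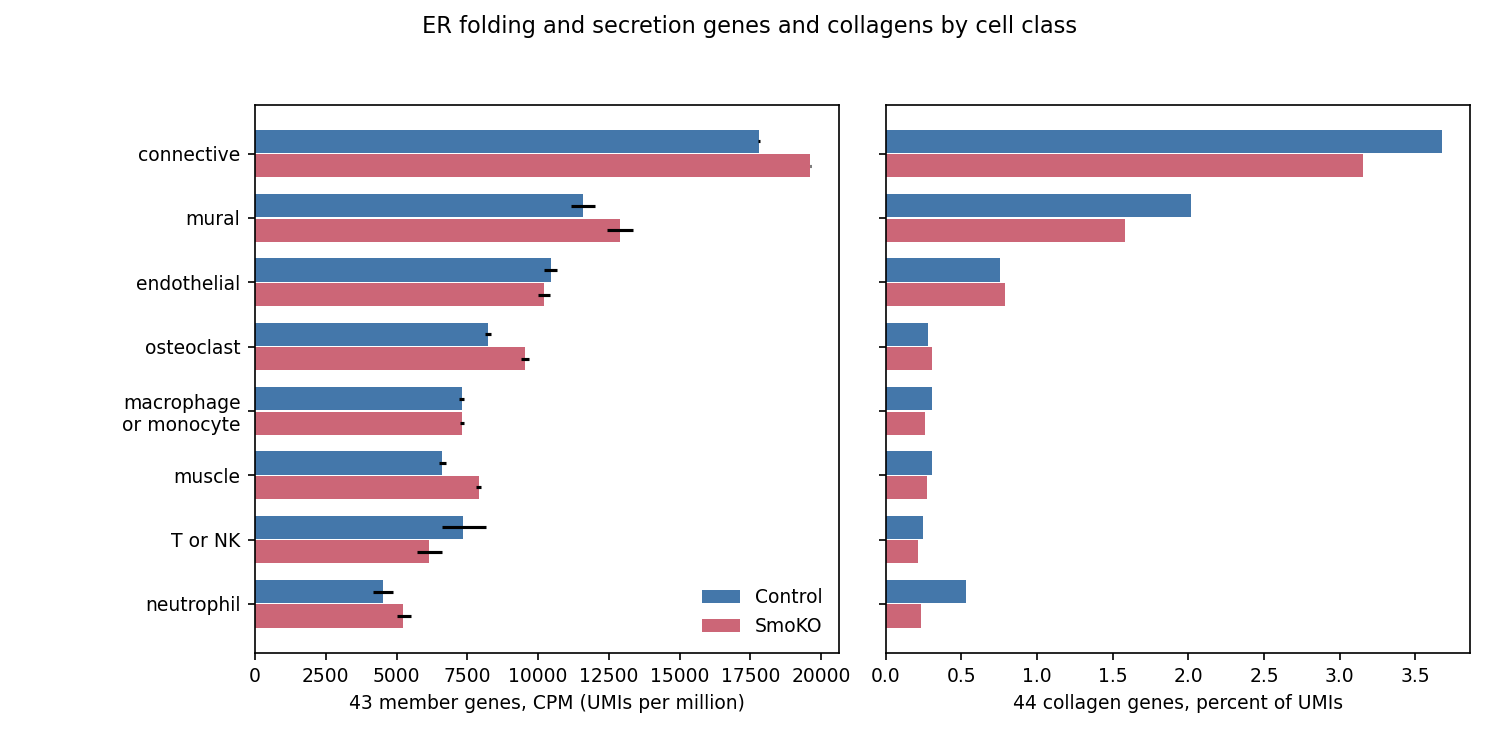
Summed level of the 43 member genes (left, CPM) and the share of UMIs on 44 collagen genes (right, percent) in 8 cell classes, with control in blue and Smo cKO in red and black lines for the counting interval of the member level. Connective cells reach 17814 and 19625 CPM, and macrophages stay at 7304 and 7320 CPM with a collagen share near that of muscle cells.

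The machinery was not one block across classes. Among the classes with at least 20 cells in each library, 34 of the 43 members were highest in connective cells in both libraries. Calr and Canx were highest in osteoclasts in both, and Hspa5, Sdf2l1, Sec23a, Sec24d, Spcs2, Spcs3 and Xbp1 had a different highest class in each library. The share of all genes that were highest in connective cells was not computed, so the count of 34 only describes the members. Smaller classes such as the plasma gate were left out of this comparison. Some of the 34, Ssr4 and Hsp90b1 among them, were higher in the plasma gate than in connective cells in both libraries, and others, Serpinh1 among them, were lower. Chaperones and co-chaperones as a group summed to 1828 and 2307 CPM in connective cells and to 1473 and 1373 CPM in hematopoietic cells, all blood-derived gates together. The 5 collagen folding genes summed to 3475 and 4195 CPM in connective cells but to 477 and 552 CPM in hematopoietic cells. KDEL receptors stood at 980 and 1045 CPM against 219 and 210 CPM.

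Gene by gene, 26 of the 43 members were at least 2-fold higher in connective than in hematopoietic cells in both libraries, where 20.2% of the 3191 genes at 50 CPM or more were. None was 2-fold lower in both, where 16.5% of those genes were. The median member differed by 1.29 on the log2 scale and the median gene by 0.12. All 5 collagen folding genes, all 6 COPII and cargo export genes and all 3 KDEL receptors were among the 26, with 6 of 10 translocon and signal peptidase genes, 2 of 4 disulfide isomerases, 2 of 4 p24 cargo receptors, Ckap4 and Creb3l1. Of the 6 chaperones and co-chaperones and the 2 lectin chaperones, 0 were. Among the members called higher, Creb3l1, Fkbp10, Kdelr3, P3h1, Crtap, Mia3, Sec23a and Sec24d were under 50 CPM in hematopoietic cells of both libraries. These members were tested only because their connective level reached that limit.

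Serpinh1, the collagen-specific chaperone HSP47, had the largest difference, at 2259 and 2918 CPM in control and Smo cKO connective cells and at 177 and 233 CPM in hematopoietic cells, log2 ratios of 3.68 and 3.65. Fkbp10, a prolyl isomerase for procollagen, was at 265 and 255 CPM against 25.1 and 20.9 CPM. Kdelr3 was at 233 and 255 CPM against 22.7 and 21.4 CPM. These genes separated the classes by 10 times or more in each library. Creb3l1, a membrane-bound transcription factor that acts on collagen genes in bone, was at 115 and 122 CPM against 9.98 and 12.7 CPM, and P3h1, a collagen prolyl 3-hydroxylase, at 94.1 and 91.8 CPM against 13.9 and 12.3 CPM. P4hb, which serves both as a disulfide isomerase and as a subunit of collagen prolyl 4-hydroxylase, was at 924 and 918 CPM against 311 and 278 CPM, log2 ratios of 1.57 and 1.72.

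Free RNA and doublets, which were not called, can carry connective transcripts into hematopoietic barcodes, and their share in these values was not measured. Col1a1, Col1a2 and Col3a1, which blood-derived cells are not known to make in quantity, were in hematopoietic cells at 7.31% to 8.51% of their connective level, with median depths of 2734 and 3445 UMIs per hematopoietic cell. Serpinh1 was at 7.82% and 7.98% of its connective level there, within that range, so its hematopoietic UMIs cannot be told apart from carried-over RNA. Fkbp10 at 9.47% and 8.19%, Kdelr3 at 9.74% and 8.40% and Creb3l1 at 8.71% and 10.4% lay in or just above it. P4hb, at 33.6% and 30.3%, was well above this range.

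At the other end were the 5 members with the lowest ratios, Sdf2l1, Canx, Spcs2, Hspa5 and Spcs3. Sdf2l1, a partner of BiP in the ER lumen, was lower in connective cells, at 41.5 and 55.1 CPM against 79.6 and 84.8 CPM, log2 ratios of -0.94 and -0.62. Canx was at 215 and 231 CPM against 272 and 231 CPM. Hspa5 changed sides between the libraries, at 512 CPM in connective and 576 CPM in hematopoietic cells of the control and at 686 and 531 CPM in those of the Smo cKO. The signal peptidase subunits Spcs2 and Spcs3 differed by -0.04 and 0.01 on the log2 scale in the control versus by 0.14 and 0.39 in the Smo cKO. Xbp1, the transcription factor of the unfolded protein response needed for secretory cells, was at 105 and 125 CPM against 81.9 and 88.7 CPM.

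**Figure D2:**
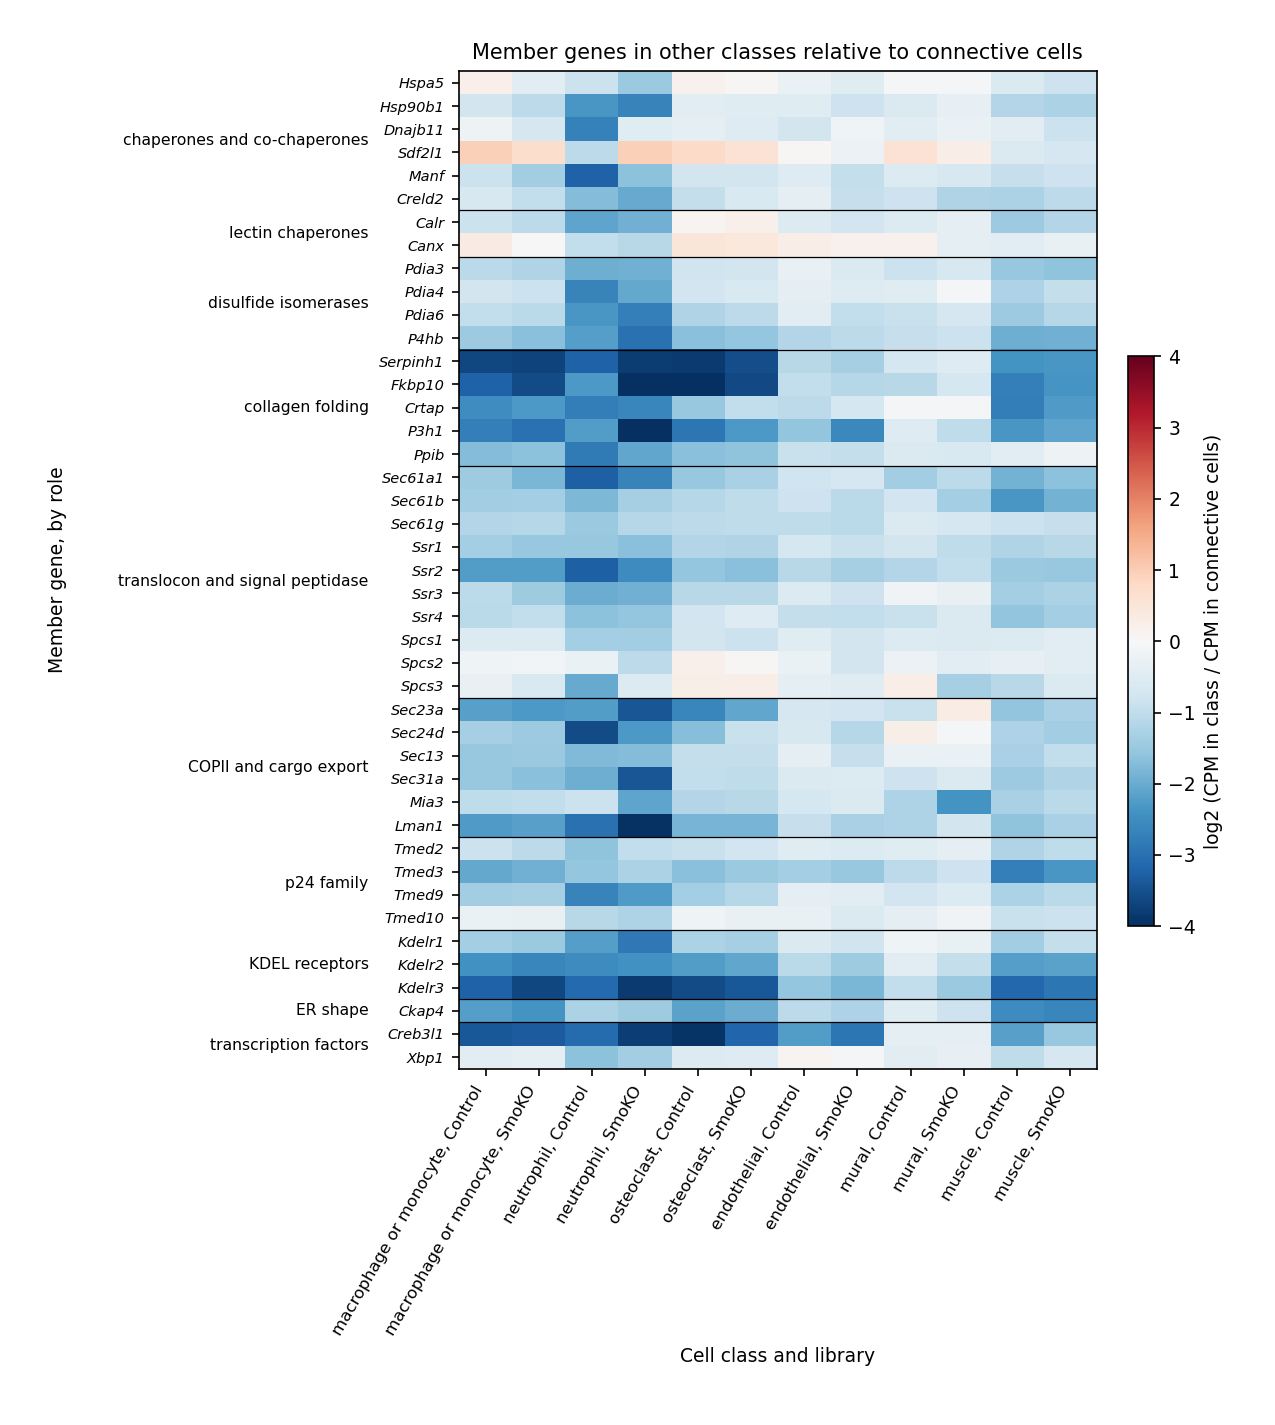
Level of each member gene in 6 cell classes relative to connective cells of the same library, as log2 of the CPM ratio, with genes grouped by role. The blue band across Serpinh1, Fkbp10 and P3h1, and at Kdelr3 and Creb3l1, contrasts with the pale rows of Hspa5, Sdf2l1, Canx and Spcs2, and mural cells are the palest columns.

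Lists of related genes that hold no members are read against the same 20.2% of genes higher and 16.5% lower. Of the collagen-modifying genes, which include prolyl and lysyl hydroxylases, 9 of 11 tested were at least 2-fold higher in connective cells in both libraries. The median log2 ratio of the 11 was 3.14. Oligosaccharyltransferase and translocation genes counted 6 of 15 higher and 1 lower, other COPII and COPI genes 6 of 14 higher, and unfolded protein response and ER-associated degradation genes 3 of 14 higher, which is near the background, with medians of 1.00, 0.98 and 0.45. Cytosolic and mitochondrial chaperones, which fold proteins that are not secreted, counted 0 of 11 with a median of 0.40. All 17 collagens tested were higher.

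Within the connective class, cells were placed in subclasses by the score of marker genes that are neither members nor collagens, and each subclass is called by its markers. The scores are continuous, and between 25 and 274 cells of each subclass in a library lay close to the limit. These were 274 of 678 control and 236 of 607 Smo cKO cells in Tnc Inhba. In Sfrp4 Eln they were 165 of 910 and 119 of 518 cells. The summed member level ranged from 11242 CPM in Sfrp4 Eln cells to 21784 CPM in Tnc Inhba cells of the control, and from 14430 to 22702 CPM in the same subclasses of the Smo cKO. The collagen share ran the other way between these subclasses, at 4.87% and 4.60% of UMIs in Sfrp4 Eln cells and at 2.91% and 2.76% in Tnc Inhba cells. For each collagen UMI, Sfrp4 Eln cells thus held 0.231 and 0.314 member UMIs and Tnc Inhba cells 0.748 and 0.824. Osteoblast-gated cells combined a high collagen share, 4.62% and 4.29%, with 19320 and 20673 member CPM. Fmod Acan cells did likewise, with 4.35% and 4.10% collagen and 20311 and 21165 member CPM.

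**Figure D3:**
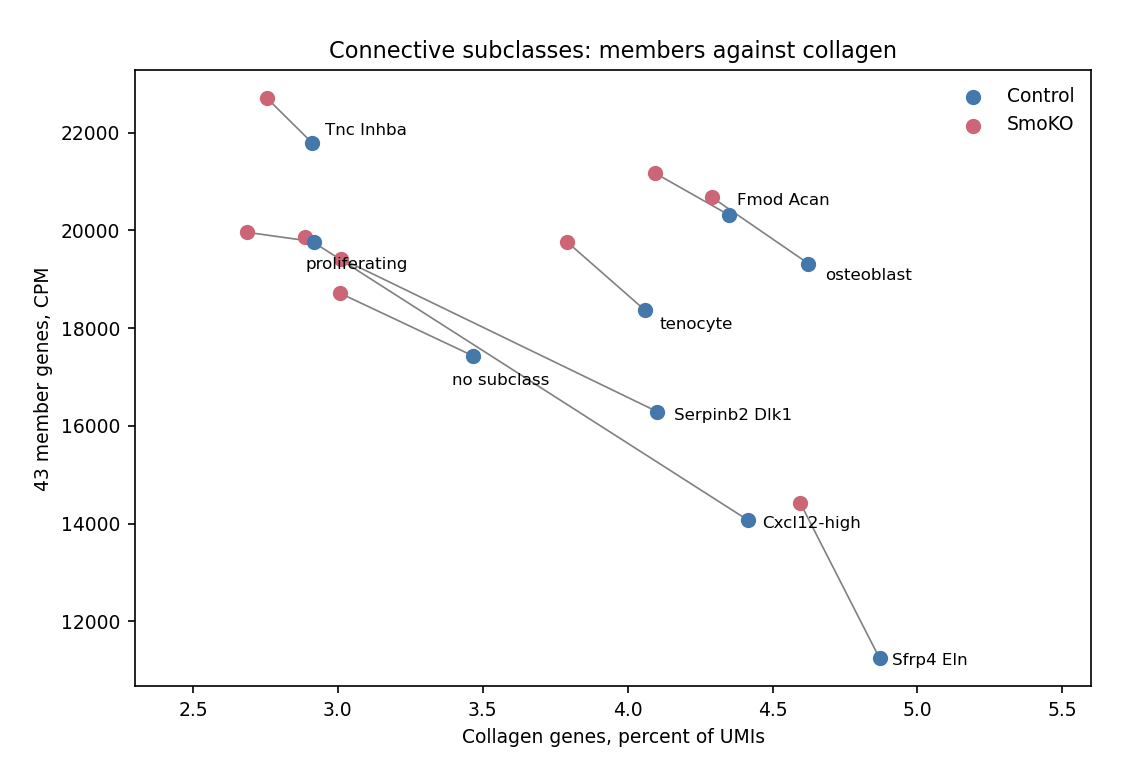
Summed member level (CPM) against the collagen share of UMIs (percent) for each connective subclass, with control in blue, Smo cKO in red and a line joining the libraries. Sfrp4 Eln cells are lowest for members and highest for collagen in both libraries, and the longest line is that of Cxcl12-high cells, from 14074 CPM at 4.41% to 19870 CPM at 2.89%.

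In Sfrp4 Eln cells (910 control and 518 Smo cKO cells) 32 of the 43 members were at least 20% lower than in the other connective cells in both libraries, where 35.9% of the 2872 genes tested were, and 0 were at least 25% higher, where 18.8% were (both limits are the same fold). The median member differed by -0.68 and the median gene by -0.19 on the log2 scale. Sdf2l1 was lowest, at 14.9 and 24.2 CPM against 44.2 and 57.1 CPM. Among the members called lower, Sdf2l1, Spcs3, Creld2 and Sec23a were under 50 CPM in Sfrp4 Eln cells of both libraries. They were tested only because their level in the other connective cells reached that limit. Manf, a secreted ER stress protein, was at 193 and 277 CPM against 473 and 574 CPM. Serpinh1 was at 1469 and 2316 CPM against 2337 and 2957 CPM, and P4hb at 662 and 696 CPM against 950 and 932 CPM. Both were lower in cells whose Col1a1 was higher, at 12621 and 11709 CPM against 9090 and 7853 CPM.

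The 3 members with the highest ratios in Sfrp4 Eln cells lay near an even level. Mia3, which loads procollagen into COPII carriers, had log2 ratios of 0.10 and 0.17. Crtap, the partner of P3h1, had ratios of 0.07 and 0.15, and Tmed3, a p24 cargo receptor, had -0.03 and 0.11. Hspa5 was at 432 and 501 CPM against 519 and 697 CPM, Creb3l1 at 90.5 and 106 CPM against 117 and 123 CPM, and Xbp1 at 75.7 and 109 CPM against 108 and 126 CPM. These 3 did not pass the limit in both libraries.

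Sfrp4 Eln cells were also shallower, with medians of 7834 and 9291 UMIs per cell. Cytosolic chaperones were lower with the members in 10 of 11 cases, with a median of -0.79, and immediate early genes, which respond to tissue dissociation, were higher in 9 of 11 cases, with a median of 0.74. The part of depth and of dissociation in these levels was not tested.

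In Tnc Inhba cells (678 and 607 cells) 10 members were higher, where 7.08% of 2725 genes were, and 0 were lower, where 8.48% were. They were Manf, Hsp90b1, Creld2, Dnajb11, Pdia6, Calr, Spcs3, Lman1, P3h1 and Fkbp10. Hsp90b1 was at 918 and 1034 CPM against 631 and 785 CPM, and Manf at 627 and 690 CPM against 417 and 536 CPM. Sdf2l1 was at 65.9 CPM in both libraries against 37.4 and 53.5 CPM, which passed the limit in the control only. Hspa5 had ratios of 0.33 and 0.24, Serpinh1 of 0.39 and 0.26, P4hb of 0.29 and 0.25, Creb3l1 of 0.28 and 0.17 and Xbp1 of 0.28 and 0.03 on the log2 scale. Here all 11 immediate early genes tested were lower, with a median of -1.40, and the cells were deep, with medians of 17821 and 18095 UMIs. Collagens were lower as well, Col1a1 at 6879 and 6581 CPM against 9839 and 8314 CPM.

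In the skeletal subclasses 3 and 2 members were higher, shares below those of all genes. In Fmod Acan cells, which carry early cartilage and tendon genes, Spcs1 was at 463 and 450 CPM against 278 and 343 CPM and Sec13, a COPII coat subunit, at 174 and 181 CPM against 110 and 135 CPM. Tmed3 was the remaining one of 3 members higher there, where 10.3% of genes were, and 0 were lower, where 6.23% were, and Kdelr3 had ratios of 0.50 and 0.29. In osteoblast-gated cells the 2 higher members were Fkbp10, at 339 and 338 CPM against 263 and 252 CPM, and Creb3l1, at 146 and 156 CPM against 114 and 121 CPM. There 8.42% of genes were higher and 7.59% lower, and Sec31a, of the outer COPII coat, came next with ratios of 0.41 and 0.24.

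No member passed the limit in the same direction in both libraries in the remaining subclasses. In tenocyte-gated cells, where 5.92% of genes were higher and 4.11% lower, Sec13 led with ratios of 0.35 and 0.16, before Tmed3 with 0.19 and 0.28 and Spcs1 with 0.27 and 0.16. In proliferating cells, where 9.32% were higher and 7.96% lower, Sdf2l1 led with 0.50 and 0.30, before Ckap4, which shapes ER sheets, with 0.41 and 0.31 and Creld2, a lumenal disulfide protein, with 0.49 and 0.21. In Serpinb2 Dlk1 cells, where 3.86% were higher and 3.24% lower, Crtap (0.18 and 0.00), Creb3l1 (0.00 and 0.14) and Spcs3 (-0.06 and 0.20) led. In Cxcl12-high cells, where 2.81% were higher and 3.55% lower, the libraries disagreed, with the summed members at -0.38 in the control versus 0.02 in the Smo cKO relative to the other connective cells. Crtap was highest there with ratios of 0.15 and 0.07.

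Between the genotypes, the summed member level of connective cells was 1.10-fold higher in the Smo cKO, with a log2 ratio of 0.14 (0.137 to 0.143), while the collagens together went from 36783 to 31560 CPM, a log2 ratio of -0.22. The machinery and its main cargo thus stood on opposite sides of an even level. Of the 43 members, 27 were above an even level and 16 below, and 5 were at least 25% higher, 11.6% of them against 8.49% of the 2567 genes tested, which is near the background. None was 20% lower, where 4.21% of genes were. The median member ratio was 0.13 and the median gene 0.06, so that the median gene was above an even level as well.

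The largest summed ratio belonged to the chaperones. Chaperones and co-chaperones summed to 1828 CPM in the control versus 2307 CPM in the Smo cKO (log2 ratio 0.34), with 6 of 6 genes above an even level. Hspa5 went from 512 to 686 CPM, a ratio of 0.42 (0.40 to 0.44), the highest of all members, and Hsp90b1, the lowest of its group, from 673 to 818 CPM, a ratio of 0.28 (0.27 to 0.30). Sdf2l1 (41.5 and 55.1 CPM) and Creld2 (67.4 and 84.6 CPM) were also at least 25% higher. Sdf2l1 was under the 50 CPM limit in the control and was tested only because its Smo cKO level reached that limit. It is counted among the members called higher between the genotypes. Manf, at 447 and 556 CPM, fell just short at 1.24-fold.

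Among the lectins, Calr went from 784 to 963 CPM, a ratio of 0.30, and Canx from 215 to 231 CPM, a ratio of 0.10. Among the disulfide isomerases, Pdia3 went from 417 to 516 CPM, a ratio of 0.31, and Pdia4 from 86.4 to 97.7 CPM, a ratio of 0.18. P4hb was level, at 924 and 918 CPM with a ratio of -0.01 (-0.02 to 0.00). Collagen folding genes were split. Ppib, a prolyl isomerase, was at 721 and 821 CPM, a ratio of 0.19. Serpinh1 went from 2259 to 2918 CPM, a ratio of 0.37 (0.36 to 0.38), while Crtap went from 136 to 110 CPM, a ratio of -0.31 (-0.35 to -0.27), the lowest of all members. The collagen cargo lay on the side of Crtap, with Col1a1 at 9419 and 8095 CPM, Col1a2 at 10544 and 9146 CPM and Col3a1 at 9593 and 7848 CPM.

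The entry and exit steps were nearly even. Translocon and signal peptidase genes summed to 5830 and 5898 CPM, a ratio of 0.02, from Spcs2 at 136 and 177 CPM (0.38) to Sec61a1, the channel subunit, at 260 and 246 CPM (-0.08). The channel subunits Sec61b and Sec61g had ratios of -0.01 and -0.03, and the translocon-associated Ssr1, Ssr2 and Ssr3 had -0.02, 0.24 and 0.04. COPII and cargo export genes summed to 676 and 695 CPM, a ratio of 0.04, from Sec13 at 115 and 138 CPM (0.26) to Mia3 at 72.5 and 64.9 CPM (-0.16). The p24 receptors had a summed ratio of 0.10, from Tmed10 (346 and 396 CPM, 0.20) to Tmed3 (435 and 413 CPM, -0.07), with Tmed2 at 0.15 and Tmed9 at 0.13. KDEL receptors had 0.09, from Kdelr1 (248 and 279 CPM, 0.17) to Kdelr2 (499 and 511 CPM, 0.04). Ckap4 was at 436 and 383 CPM, a ratio of -0.19. Of the transcription factors, Xbp1 was at 105 and 125 CPM, a ratio of 0.24 (0.20 to 0.28), and Creb3l1 at 115 and 122 CPM, a ratio of 0.09 (0.05 to 0.13).

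**Figure D4:**
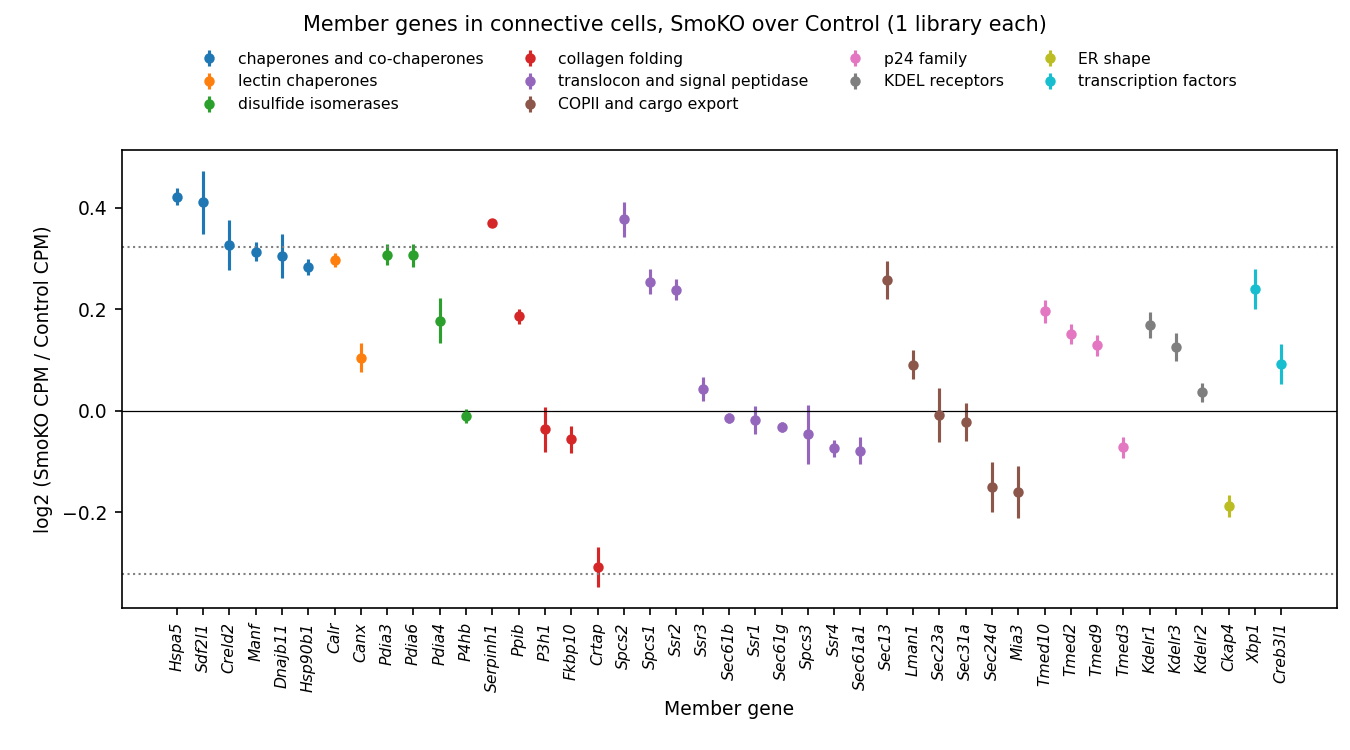
Log2 ratio of Smo cKO over control CPM in connective cells for each member gene, colored by role, with lines for the counting interval and dotted lines at the limits of 25% higher and 20% lower. All 6 chaperones lie at 0.28 or above, and Crtap is lowest at -0.31, with 1 library per genotype.

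The 6 members with an ER stress element in their promoter had ratios from 0.10 to 0.42 with a median of 0.30, and 2 of them were at least 25% higher. The 28 with a promoter window but without the element ranged from -0.31 to 0.41 with a median of 0.08, and 3 of them passed. Of all genes tested, 8.49% were at least 25% higher. The element was found only among chaperones, lectins and isomerases, and the part of role in this difference was not tested. Of these same roles, Sdf2l1 (0.41), Dnajb11 (0.30), Pdia3 (0.31), Pdia4 (0.18) and P4hb (-0.01) had a window but lacked the element. Canx, which holds it, stood at 0.10.

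Other genes of the pathway were called at shares below the 8.49% of all genes that were at least 25% higher. Of the unfolded protein response and degradation genes, 1 of 13 was at least 25% higher, as was 1 of 15 oligosaccharyltransferase and translocation genes, 1 of 14 other COPII and COPI genes and 0 of 11 collagen-modifying genes, and 0 of any of these lists were lower. Their median ratios were 0.08, 0.08, 0.08 and -0.01. The cytosolic and mitochondrial chaperones were above an even level in 11 of 11 cases, with a median of 0.23 and 1 past this limit, so that chaperones outside the ER lay on the same side as those inside it.

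Several library measures moved with the genotype. In connective cells immediate early genes stood at 2476 CPM in the control versus 2949 CPM in the Smo cKO library, and 9 of the 11 tested were at least 25% higher, with a median ratio of 0.60. Hemoglobin stood at 1016 and 1604 CPM, macrophage markers at 140 and 174 CPM and the median depth at 11341 and 14198 UMIs. All cells were also grouped by graph clusters, named from the same markers. Of the connective-gated cells of both libraries together, 10881 lay in clusters named connective. A further 438 lay in an unnamed cluster, 310 in that of muscle and 228 in that of erythroid cells. In the third of connective cells with the lowest immediate early level, at 990 and 1017 CPM, the summed members had a ratio of 0.029, with Hspa5 (0.42), Spcs2 and Sdf2l1 past the limit upward and Sec24d and Crtap downward, where 6.40% of genes were higher and 6.16% lower. In the third with the highest level, at 5592 and 6093 CPM, the ratio was 0.41 and 23 members passed upward, where 29.6% of all genes tested did. This division was chosen after the data were seen. Among cells of at most 2000 genes, the limit of the study, the ratio was 0.46 and 30 members passed, where 33.2% of genes did. These were 1431 control and 786 Smo cKO connective cells, with median depths of 5130 and 4038.5 UMIs, so that the control cells were the deeper ones there.

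Outside the connective class the summed members had ratios of 0.00 (-0.02 to 0.02) in macrophages or monocytes, -0.025 (-0.041 to -0.0094) in all hematopoietic cells and -0.03 (-0.07 to 0.01) in endothelial cells. Osteoclasts stood at 0.21, muscle cells at 0.26, mural cells at 0.15, neutrophils at 0.22 and T or NK cells at -0.26, from 24 and 60 cells in the latter. The unclassed cells stood at 0.15. All of these comparisons rest on the same 2 libraries.

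Within the connective class the ratio varied by subclass. It was 0.50 in Cxcl12-high cells (946 and 393 cells), where the member level went from 14074 to 19870 CPM, 0.36 in Sfrp4 Eln cells and 0.25 in Serpinb2 Dlk1 cells. The median gene was also displaced there, by 0.20, 0.11 and 0.13. The subclass of Serpinb2 Dlk1 cells held 277 and 414 cells, whereas the graph cluster led by these genes held 2 control and 125 Smo cKO cells, so that nearly all control cells of the subclass lay in other clusters. The Cxcl12-high subclass was gated on Cxcl12 alone, a gene that the study reported in fewer cells of the Smo cKO. Its median depth was 9118 and 12551 UMIs and its collagen share 4.41% and 2.89%. Whether it holds the same kind of cells in both libraries was not tested. In Cxcl12-high cells Hspa5 was at 408 and 792 CPM, Serpinh1 at 1726 and 2980 CPM and P4hb at 821 and 909 CPM, while Xbp1 was at 95.1 and 131 CPM and Creb3l1 at 99.3 and 105 CPM. Their Col1a1 went the other way, from 11937 to 7308 CPM. The ratio was 0.06 in Tnc Inhba and Fmod Acan cells, 0.10 in osteoblast-gated cells, 0.11 in tenocyte-gated cells and 0.01 in proliferating cells. With both libraries set to the same mix of subclasses, the ratio of the summed members over all connective cells was 0.13.

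To relate the machinery to its cargo cell by cell, connective cells were thinned at random to 2000 UMIs each and divided into quintiles by their collagen share within each library, and members were counted per 10000 UMIs that were not collagen. The collagen share rose from 1.75% in the lowest to 6.56% in the highest quintile of the control and from 1.29% to 5.95% in the Smo cKO. Taken over all connective cells, those richest in collagen did not hold more of the machinery. The direction of this relation differed by depth and by subclass, as given below. In the control, members went down at every step, at 185, 181, 170, 161 and 149.7 per 10000, a log2 ratio of -0.31 between the outer quintiles. In the Smo cKO they were at 193, 207, 202, 193 and 187 per 10000, highest in the second quintile, a log2 ratio of -0.04.

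The roles parted along this axis. Chaperones and co-chaperones went from 23.0 to 11.7 per 10000 in the control versus from 27.2 to 17.5 in the Smo cKO. Collagen folding genes were at 32.9 and 32.4 in the outer quintiles of the control, and in the Smo cKO they went from 36.8 in the lowest to between 43.9 and 45.4 in the other quintiles. COPII and cargo export genes were at 6.55 and 6.09 in the control versus at 5.98 and 7.12 in the Smo cKO. Cytosolic chaperones fell along with those of the ER, from 60.0 to 34.9 and from 69.0 to 40.9.

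Of the 41 members with enough UMIs (all but Sdf2l1 and Spcs3), 4 were at least 25% higher in the highest than in the lowest quintile in both libraries, namely Mia3, Ssr4, Tmed3 and Crtap, where 21.5% of 2265 genes other than collagens were. At least 20% lower were 9, namely Hspa5, Hsp90b1, Calr, Manf, Pdia6, Creld2, Dnajb11, Spcs2 and Tmed10, where 25.7% of genes were. Neither share exceeded the background. All 11 cytosolic and mitochondrial chaperones were lower.

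Crtap went from 0.953 to 1.63 per 10000 in the control versus from 0.936 to 1.45 in the Smo cKO, log2 ratios of 0.78 and 0.63. Mia3 went from 0.605 to 0.902 (151 and 214 UMIs) and from 0.458 to 0.745 (97 and 150 UMIs). Tmed3 went from 3.45 to 5.24 and from 3.08 to 5.55, and Ssr4 from 5.998 to 7.92 and from 5.77 to 7.65. P3h1, the partner of Crtap, was at 0.917 and 0.771 in the control versus at 0.784 and 0.869 in the Smo cKO. Hspa5 went from 6.21 to 3.89 and from 8.14 to 6.09, and Manf from 5.78 to 2.52 and from 7.14 to 3.64. Serpinh1 went from 21.7 to 20.2 in the control versus from 25.2 to 31.4 in the Smo cKO, so that its direction differed between the libraries. P4hb was at 8.42 and 8.81 in the control versus at 7.74 and 9.25 in the Smo cKO. Xbp1 was at 1.02 and 0.792 and at 1.17 and 1.24, and Creb3l1 at 0.941 and 1.04 and at 0.983 and 1.26.

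**Figure D5:**
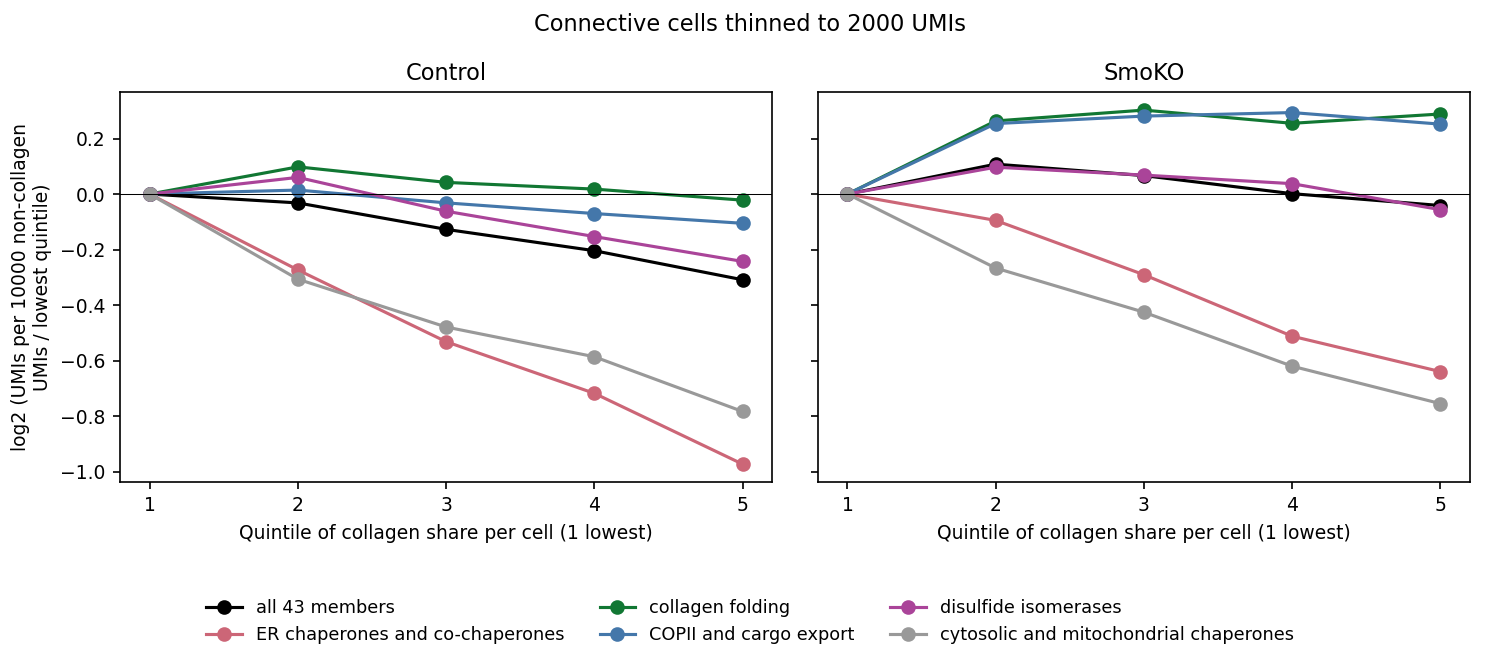
Log2 of member UMIs per 10000 non-collagen UMIs relative to the lowest quintile, against the quintile of collagen share per connective cell, for the control (left) and Smo cKO (right) library. The ER chaperone line falls together with that of the cytosolic chaperones in both libraries, while collagen folding and COPII lines stay near 0 in the control and lie above it in the Smo cKO.

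Depth and cell type also changed along the quintiles. The median depth before thinning fell from 17022 to 8954 UMIs in the control versus from 19859 to 10726 in the Smo cKO. Sfrp4 Eln cells made up 4.96% of the lowest and 26.1% of the highest quintile of the control and 1.96% and 21.5% of those of the Smo cKO, while Tnc Inhba cells went from 19.6% to 2.28% and from 13.2% to 4.01%. In the third of cells with the fewest UMIs the direction reversed, with log2 ratios between the outer quintiles of 0.22 in the control versus 0.17 in the Smo cKO, and in the third with the most UMIs they were -0.12 and 0.013. Without Sfrp4 Eln cells they were -0.24 and 0.031. These divisions were chosen after the data were seen.

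Spearman's rank correlation of each member with the collagen share, at a fixed 1500 non-collagen UMIs per cell, was weak throughout the 39 members with enough UMIs (all but Sec23a, Spcs3, Creld2 and Sdf2l1) and is given as a description over cells that share a library. It was highest for Tmed3 (0.11 in the control versus 0.14 in the Smo cKO), Ssr4 of the translocon-associated complex (0.10 and 0.07), Crtap (0.06 and 0.08), Mia3 (0.05 and 0.05) and Kdelr1 (0.03 and 0.06), and lowest for Manf (-0.21 and -0.18), Calr (-0.19 and -0.14) and Hsp90b1 (-0.18 and -0.14). For the sum of the members it was -0.19 over 6351 control cells and -0.07 over 5356 Smo cKO cells. Within Sfrp4 Eln cells it was 0.32 and 0.18, within Tnc Inhba cells 0.11 and 0.13 and within osteoblast-gated cells 0.03 and 0.09. In these subclasses the sign was thus opposite to that over all connective cells. The correlation of the sum differed in sign between the libraries within Fmod Acan cells (-0.07 and 0.01) and proliferating cells (-0.01 and 0.06). It was negative in both libraries within Serpinb2 Dlk1 cells (-0.21 and -0.11), tenocyte-gated cells (-0.09 and -0.15), Cxcl12-high cells (-0.03 and -0.19) and connective cells of no subclass (-0.15 and -0.014). Serpinh1 alone stood at 0.29 and 0.21 within Sfrp4 Eln cells and at 0.14 and 0.22 within Tnc Inhba cells, whereas Hspa5 stood at -0.08 and -0.11 and at -0.06 and -0.05. P4hb stood at 0.13 and 0.13 within Sfrp4 Eln cells and at 0.16 and 0.12 within Tnc Inhba cells.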

How the data were processed

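Per the labels and the study's methods, the authors pooled calluses by genotype, prepared 10x Chromium libraries and, per the submitters' processing notes, used Cell Ranger 3.0.2 with mm10. The deposited matrices hold raw UMI counts per gene and barcode, without normalization. The control matrix sums to 105367110 UMIs and that of the Smo cKO to 112700220.

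Here cells with at least 200 genes and under 10% mitochondrial UMIs were kept, with no upper limit on genes. UMIs were summed over the cells of a class and divided by all UMIs of those cells (CPM), which weights deep cells more. A gene was tested, that is compared with the fold limit, at 50 CPM or more on either side (quintiles: a mean of 0.1 UMIs or more per thinned cell in both libraries), and called at 2-fold (classes) or at 25% higher or 20% lower (genotypes, subclasses, quintiles). Subclasses needed a marker score of at least 1 SD and 2000 UMIs. Ratios carry exact intervals for 2 Poisson counts. No p-value was computed, as each genotype is 1 library. UMIs are counted molecules, so the intervals cover counting error only. Reads at 3' ends do not allow levels to be compared between genes. Thinning drew UMIs without replacement.

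All members are named, with full values for the extremes of each role (genotypes), the 5 highest and 5 lowest (classes), the 3 highest per subclass, the 5 highest and 3 lowest by rank correlation, and always for Hspa5, Serpinh1, P4hb, Creb3l1 and Xbp1. The members, lists and rules were chosen with earlier results of these data known. The ratio interval and the fold calls were tried on simulated Poisson counts without variation between cells or animals, so this trial does not cover those sources of spread. The rank correlation after thinning was tried on simulated cells. Alternatives covered filters, denominators, graph clusters (scanpy 1.11.5), fold limits, scaling, subclass mix and thinning depth. Python 3.11.15, numpy 2.4.6, scipy 1.17.1 and pandas 2.3.3 were used. Protein sequences were not analysed here.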

Additional observations from a re-analysis of the deposited data

Results flagged for a closer look

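The summed members had a log2 ratio of Smo cKO over control of 0.14 in connective cells and of -0.025 in hematopoietic cells. Each class is 1 value per library pair, the values stand on opposite sides of an even level, and the difference between them was not tested. The median gene was displaced in the same directions, at 0.057 in connective cells and at -0.068 in hematopoietic cells. In both classes the summed members thus lay above the median gene. Hemoglobin stood at 6738 CPM in hematopoietic cells of the control and at 33335 CPM in those of the Smo cKO library. Erythroid-gated cells, which belong to this class, numbered 17 and 99, with hemoglobin at 501264 and 678102 CPM. Their member level was 4841 and 4007 CPM, against 7705 and 7571 CPM in the whole class. Of the other gates of this class with at least 20 cells in each library, macrophages or monocytes had a ratio of 0.0033 and osteoclasts 0.21. Neutrophils had 0.22 and T or NK cells -0.26. Osteoclasts numbered 258 and 154 cells, and macrophages or monocytes 1409 and 1659. The hematopoietic value thus joins gates whose cell numbers and ratios differ, and the part of the erythroid cells and of this mix in it was not tested.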

How the results depend on the processing

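No paired analysis was possible because each genotype is 1 library, and no replicate could be left out. In 11 settings 429 of 473 single-member ratios between genotypes had the same sign, and 0 called members reversed. The values below follow the order summed connective CPM (control, Smo cKO), connective over hematopoietic, Sfrp4 Eln and Tnc Inhba over other connective cells, and Smo cKO over control, ratios on the log2 scale. The main values were 17814 and 19625 CPM, 1.29, -0.59, 0.30 and 0.14. At most 2000 genes per cell gave 11207 and 15395 CPM, 0.95, -0.33, 0.65 and 0.46, with 1 member lower in connective cells (18.1% of genes), and between genotypes 30 higher (33.2% of genes) and 1 (Crtap) lower (10.7%). Collagens left out of the denominator gave 18494 and 20264 CPM, 1.34, -0.57, 0.28 and 0.13. Means of per-cell CPM gave 16378 and 18997 CPM, 1.34, 0.40 for Tnc Inhba, 0.21 between genotypes and 13 members higher (12.6% of genes). Graph clusters, 16 in number, gave 18104 and 20154 CPM, 1.07, -0.62, 0.27, 0.15 and 9 members higher (9.22% of genes), and quintile ratios of -0.37 and -0.11. A lead of 0.3 in the gate gave 17936 and 19823 CPM, 1.38 and 0.14, and 500 genes per cell gave 1.27 for connective over hematopoietic. At a 1.5-fold limit 1 member (Sdf2l1) was lower in connective cells (22.9% of genes) and 0 were higher between genotypes (2.14%). Scaling by the median gene gave 0.083, with 2 members higher (Hspa5 and Sdf2l1, 5.999% of genes) and 1 (Crtap) lower (6.82%), and the pooled subclass mix gave 0.13. By immediate early level, the lowest of 3 equal groups of cells gave 0.029 with 3 members higher (6.40% of genes) and 2 lower (6.16%), and the highest 0.41 with 23 higher (29.6%). For the collagen quintiles (main -0.31 and -0.04), thinning to 5000 UMIs gave -0.34 and -0.066, no thinning -0.34 in the control, and collagens kept in the denominator -0.38 and -0.11. Of 3 equal groups by UMIs, the lowest reversed both, at 0.22 and 0.17, the highest gave -0.12 and, reversed, 0.013, and leaving out Sfrp4 Eln cells gave -0.24 and, reversed, 0.031. The cause of these changes was not tested. Deep cells weigh most in the sums over cells that were not thinned, and low members such as Mia3 rest on few UMIs per thinned cell.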
